A study of Mus musculus with 8 samples.

Results

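A stretch of mouse chromosome 8 that ends at Fgfr1 carried genes with more RNA in G9a knockout cells than in wild-type cells. The cells were Hepa 1-6, a mouse hepatoma line. Poly-A RNA was sequenced in 4 libraries of cells labelled G9a knockout and in 4 libraries of the wild-type (WT) line. The labels give no treatment and no information on clones, guides or separate cultures, so the spread between libraries may be technical. The genes described are those of the deposited table that start between 20 and 29 Mb of chromosome 8 (GRCm38, GENCODE release 21), with Eif4ebp1 left out. There were 204 such genes of 47434 in the table. Of these, 69 are called the block here: they start past 22 Mb and no further than D830025C05Rik (25597012), the neighbor of Fgfr1. The proximal flank, from 20 to 22 Mb, holds 91 genes, and the distal flank, from Nsd3 (25601601) to 29 Mb, holds 44. These borders were chosen on the difference between knockout and wild type in these same libraries. Differences of single genes and of the block are therefore given as a description, without p-values, and counts of genes past a threshold describe that choice.

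G9a, the product of Ehmt2, adds methyl groups to histone H3 at lysine 9, a mark found over silent genes and over long stretches of repressed chromatin. The block holds genes of unrelated function whose common property is their position. They include Fgfr1, a receptor tyrosine kinase for fibroblast growth factors, Ikbkb, the kinase that frees NF-kB, the histone acetyltransferase gene Kat6a, and Ido1 and Ido2, which code for tryptophan-degrading enzymes of immune regulation. The close neighborhood of FGFR1 is conserved in human and is amplified in some human cancers. How far that neighborhood matches the block was not examined.

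Library totals lay between 58256100 and 75025236 counts. Ehmt2 had 116.7, 116.7, 119.8 and 118.8 CPM (counts per 1000000, scaled by TMM) in the knockout libraries, against 345.4, 307.1, 297.6 and 306.6 CPM in the WT libraries, a log2 fold change of -1.41 ± 0.05 (standard error, SE; edgeR quasi-likelihood test, adjusted p = 3.82e-10). Of the 7 hepatocyte markers examined, 4 (Alb, Ttr, Serpina1a and Fgb) had no count in any library, and Afp made up most of the rest. The summed hepatocyte markers lay between 118.5 and 145.2 CPM in the knockout and between 6.15 and 7.52 CPM in the wild type. Fibroblast markers, mostly Col3a1, summed to between 423.2 and 453.0 CPM in the knockout and between 105.6 and 115.1 CPM in the wild type. The part of such differences in the block's values was not tested. Macrophage markers summed to at most 9.38 and 9.60 CPM in a knockout and a wild-type library. B cell markers summed to at most 0.419 and 0.375 CPM, and both T cell markers were at 0. Endothelial markers, mostly Cdh5, summed to between 4.66 and 5.65 CPM in the knockout and between 2.33 and 3.32 CPM in the wild type. In bulk RNA, fewer cells of a type and less RNA per cell cannot be told apart.

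Of the 204 genes, 107 had no read in any library, 37 had reads but too few for the filter on low counts, and 60 passed it. In the block these numbers were 14, 22 and 33. The 22 low block genes had between 1 and 57 counts over all 8 libraries together. They were not tested in the main fit, and at this depth little can be said of their differences. The filter keeps a gene that is high in either group alone, and Adam32, at 0.366 ± 0.118 CPM in the knockout and 0.0688 ± 0.0999 CPM in the wild type (SD, n = 4 each), is an example. Levels of at least 1 CPM as a mean over all 8 libraries were reached by 27 block genes, 4 genes of the proximal flank and 19 of the distal flank.

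All 27 block genes with at least 1 CPM had a positive log2 fold change (knockout minus wild type). Their median was 0.48 and their range 0.03 to 2.05. In 23 of the 27 each knockout library lay above each wild-type library. That pattern was seen in 22.5% of all 15840 genes tested, and in 2937 of the 12062 with at least 1 CPM. Over the 33 block genes that passed the filter the median was 0.50, or 1.41-fold, against 0.00 over all genes tested. Of these, 32 were positive, and the exception was the pseudogene Gm10689 (-0.17, at 0.139 ± 0.05 against 0.157 ± 0.0679 CPM). An adjusted p under 0.05 was reached by 26 of the 33 in the higher direction and by none in the lower. Of all genes tested, 47.2% were called in either direction and 23.6% in each. These calls come from the libraries that set the borders, so they test nothing about the block.

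The shift was alike in each library. The median over the 33 genes of log2(CPM + 0.5), set against the wild-type mean, was 0.51, 0.50, 0.48 and 0.51 in the knockout libraries, against -0.07, 0.03, 0.00 and 0.00 in the WT libraries. The summed level of these genes was 1861.5 ± 12.1 CPM in the knockout and 1284.6 ± 31.9 CPM in the wild type (SD, n = 4 each), a ratio of 1.45. The 20 genes of the distal flank that passed the filter summed to 639.8 ± 12.1 CPM in the knockout and 655.6 ± 7.05 CPM in the wild type, a ratio of 0.976. The 7 genes of the proximal flank summed to 61.1 ± 4.23 CPM in the knockout and 79.1 ± 1.6 CPM in the wild type.

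**Figure D1:**
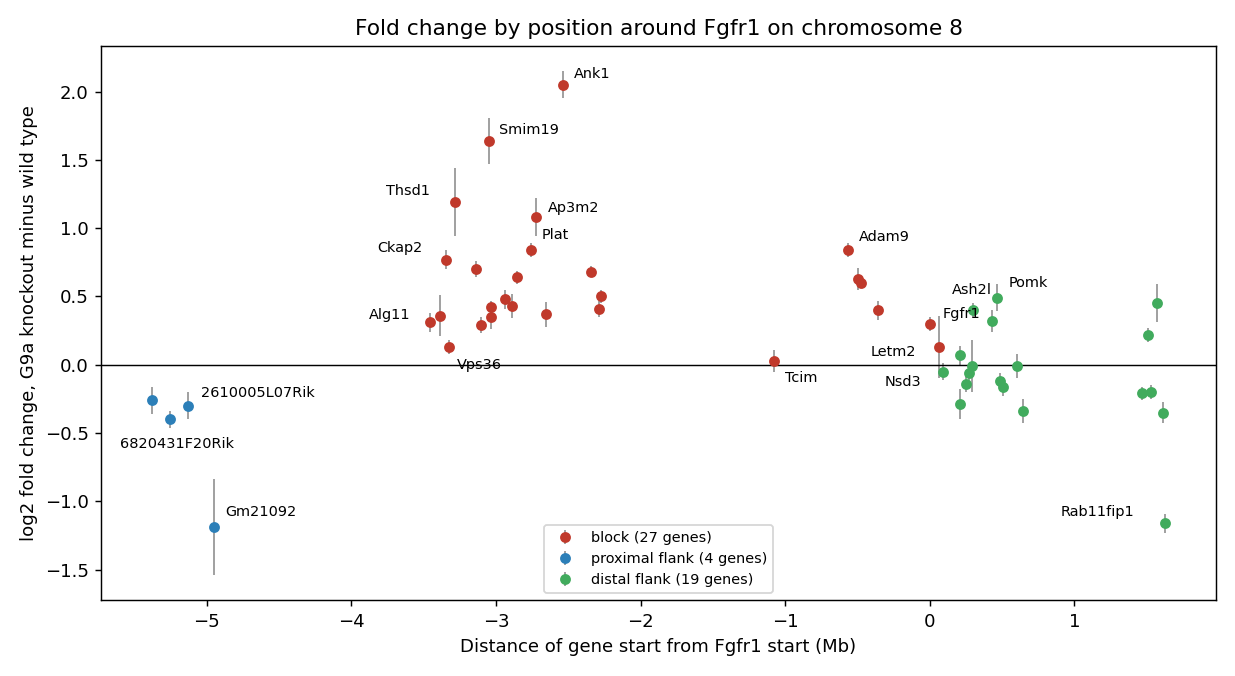
Log2 fold change (knockout minus wild type, bars show the SE) of genes that average 1 CPM or more, against the distance of the gene start from the Fgfr1 start in Mb. The 27 block genes lie at or above 0.03, the 4 genes of the proximal flank lie below 0, and the 19 genes of the distal flank lie on both sides of 0.

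The proximal border of the block falls in a stretch with few expressed genes. The flank holds alpha- and beta-defensin genes, which code for antimicrobial peptides of gut and skin. None of its 32 numbered defensin genes had a read in any library. The 3 genes with at least 1 CPM nearest to the border were pseudogenes, whose reads may be shared with copies. Gm21092 had 2.51, 2.70, 2.35 and 1.37 CPM in the knockout libraries, against 2.50, 7.58, 7.49 and 2.81 CPM in the WT libraries, so that only wild-type replicates 2 and 3 stood apart (log2 fold change -1.19 ± 0.35). The next, 2610005L07Rik, had 19.6, 21.2, 17.9 and 20 CPM in the knockout libraries, against 29.2, 22.4, 20.8 and 24.9 CPM in the WT libraries, where the groups overlapped. Levels of 6820431F20Rik did not overlap, with 24.8 ± 0.771 CPM in the knockout (lowest 23.8) and 32.7 ± 2.42 CPM in the wild type (29.8 to 35.5) (log2 fold change -0.40 ± 0.06). The fourth, Gm21811, was at 13.3 ± 1.77 CPM in the knockout and 15.9 ± 1.17 CPM in the wild type. Between Gm21092 and the first expressed gene of the block lie 1.48 Mb without a gene at 1 CPM.

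Just outside the proximal border, at 21992785 to 22060305 on the minus strand, lies Atp7b, the copper-transporting ATPase of hepatocytes. It was near silent, with 9, 45, 13 and 25 counts in the knockout libraries and 10, 7, 7 and 0 counts in the WT libraries. Its transcription starts 416 bases from that of Alg11, a mannosyltransferase gene of N-glycan assembly and the first gene inside the border (22060721 to 22071627, plus strand). Alg11 had 32.6, 33.6, 32.3 and 29.8 CPM in the knockout libraries, against 26.5, 27.8, 25.4 and 23.8 CPM in the WT libraries. All 4 knockout libraries lay above the wild type, by a log2 fold change of 0.31 ± 0.07.

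Next to Alg11, sequences upstream of gene starts are shown for 5 expressed block genes that lie close together and had shifts of different size. RefSeq promoter windows (GRCm38.p6, 250 bases before to 50 after the start) matched 38 of the 204 genes, 7 of them among the genes that passed the filter. The 5 windows shown start within 24 bases of the gene's most abundant transcript. Capitals mark the letters GGGCGG (a GC box) and CCAAT, on either strand. Neither motif overlaps the other.
Ckap2: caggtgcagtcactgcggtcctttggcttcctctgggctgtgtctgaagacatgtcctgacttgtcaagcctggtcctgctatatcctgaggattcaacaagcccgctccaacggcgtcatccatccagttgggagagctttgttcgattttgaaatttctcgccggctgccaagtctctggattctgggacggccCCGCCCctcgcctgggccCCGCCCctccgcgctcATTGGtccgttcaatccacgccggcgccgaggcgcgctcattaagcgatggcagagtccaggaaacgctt
Vps36: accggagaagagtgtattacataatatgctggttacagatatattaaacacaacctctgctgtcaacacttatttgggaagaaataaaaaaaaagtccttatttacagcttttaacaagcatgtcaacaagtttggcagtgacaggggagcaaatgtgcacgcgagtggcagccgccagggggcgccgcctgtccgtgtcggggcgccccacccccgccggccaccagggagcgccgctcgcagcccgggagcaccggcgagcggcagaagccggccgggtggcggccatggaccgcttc
Thsd1: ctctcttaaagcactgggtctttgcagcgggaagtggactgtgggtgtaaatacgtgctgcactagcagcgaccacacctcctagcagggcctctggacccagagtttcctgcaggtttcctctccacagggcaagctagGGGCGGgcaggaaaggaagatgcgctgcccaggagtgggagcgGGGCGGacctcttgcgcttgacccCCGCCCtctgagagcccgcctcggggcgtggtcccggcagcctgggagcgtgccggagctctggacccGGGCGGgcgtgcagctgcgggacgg
Slc25a15: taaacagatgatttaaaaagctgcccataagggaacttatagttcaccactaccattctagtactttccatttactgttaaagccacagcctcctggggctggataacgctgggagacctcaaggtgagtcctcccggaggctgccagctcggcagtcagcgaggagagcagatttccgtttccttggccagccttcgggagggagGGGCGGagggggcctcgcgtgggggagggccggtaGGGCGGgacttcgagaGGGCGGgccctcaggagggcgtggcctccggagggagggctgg
Mrps31: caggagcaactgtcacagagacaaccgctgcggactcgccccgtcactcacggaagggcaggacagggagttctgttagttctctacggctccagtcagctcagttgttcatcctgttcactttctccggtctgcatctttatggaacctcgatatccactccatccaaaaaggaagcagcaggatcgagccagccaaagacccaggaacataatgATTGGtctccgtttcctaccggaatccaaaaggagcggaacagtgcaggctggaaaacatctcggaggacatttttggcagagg
The Ckap2 window is chr8:22185770-22186069 (minus strand), Vps36 chr8:22192583-22192882 (plus), Thsd1 chr8:22227053-22227352 (plus), Slc25a15 chr8:22398572-22398871 (minus) and Mrps31 chr8:22411090-22411389 (plus). GC boxes were found in the windows of Thsd1 (4), Slc25a15 (3) and Ckap2 (2) and not in those of Vps36 and Mrps31. Of all 32851 windows of the RefSeq table, 35.7% held a GC box and 37.4% a CCAAT. The letters TATAAA, found in 13.6% of all windows, were in none of the 5. The 5 windows held between 13 and 22 CG dinucleotides each, against a median of 7 over the table. A sixth block gene that passed the filter, Nek3, also had a window, with 1 TATAAA, 1 CG and no GC box or CCAAT. It lies 3918 bases from the start of that gene's most abundant transcript and is not printed. A match of letters is a description and not a binding site.

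These neighbors had shifts of different size. Ckap2, a microtubule-associated protein of the mitotic spindle (22168160 to 22185819), had 125.9, 115.7, 118.2 and 117.8 CPM in the knockout libraries, against 58.5, 73.9, 73.6 and 74.1 CPM in the WT libraries. Every knockout library lay well above the wild type, where replicate 1 was low, and the log2 fold change was 0.77 ± 0.07. Vps36, a subunit of the endosomal sorting complex ESCRT-II, is the next expressed gene. It had 74.0, 69.5, 74.0 and 74.6 CPM in the knockout libraries, against 64.9, 70.5, 68.7 and 63.0 CPM in the WT libraries. Here the groups overlapped, and the log2 fold change was 0.13 ± 0.05. Thsd1, a membrane protein with a thrombospondin domain, was low, at 2.34 ± 0.492 CPM in the knockout and 1.02 ± 0.318 CPM in the wild type, without overlap (1.19 ± 0.25).

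Genes for mitochondrial proteins belonged to the block. Slc25a15, the ornithine carrier of the urea cycle, had 40.5, 39.4, 38.7 and 36.6 CPM in the knockout libraries, against 24.2, 23.2, 25.1 and 22.8 CPM in the WT libraries (log2 fold change 0.70 ± 0.06). Mrps31, a protein of the small mitochondrial ribosomal subunit, was at 24.4 ± 0.958 CPM in the knockout (lowest 23.4) and 20 ± 0.615 CPM in the wild type (19.4 to 20.7), with a log2 fold change of 0.29 ± 0.06. Vdac3, an anion channel of the outer mitochondrial membrane, had 189.9, 167.1, 193.2 and 187.0 CPM in the knockout libraries, against 118.0, 130.8, 145.9 and 132.4 CPM in the WT libraries (0.48 ± 0.07). None of these 3 genes overlapped between groups. Letm2, a relative of a mitochondrial cation exchanger gene at the distal border, did, with 1.44 ± 0.219 CPM in the knockout and 1.32 ± 0.31 CPM in the wild type.

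Replication, repair and mitosis genes made a second set. Gins4, a subunit of the replicative helicase, had 54.3, 55.7, 57.1 and 62.6 CPM in the knockout libraries, against 42.8, 41.4, 43.5 and 44.8 CPM in the WT libraries (log2 fold change 0.41 ± 0.06). Polb, the DNA polymerase of base excision repair, had 20.6, 22.1, 20.9 and 18.2 CPM in the knockout libraries, against 12.7, 15.5, 16.9 and 15.6 CPM in the WT libraries (0.43 ± 0.09). Tacc1, a centrosomal coiled-coil protein, had 32.4, 36.9, 32.3 and 34.1 CPM in the knockout libraries, against 24.5, 26.8, 27.2 and 24.4 CPM in the WT libraries (0.40 ± 0.07). Groups did not overlap in these 3. The kinase gene Nek3 was at 3.60 ± 0.52 CPM in the knockout and 2.80 ± 0.227 CPM in the wild type, with overlap, and its relative Nek5 had 21 counts in all, each of them in the knockout.

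Ikbkb and genes for proteases that act outside the cell follow. Ikbkb had 74.2, 76.0, 67.0 and 72.0 CPM in the knockout libraries, against 45.2, 47.5, 45.2 and 47.3 CPM in the WT libraries. The lowest knockout library stood well above the highest wild-type library, and the log2 fold change was 0.64 ± 0.05. Plat, tissue plasminogen activator, which turns plasminogen into plasmin, had 87.6, 86.7, 89.6 and 91.9 CPM in the knockout libraries, against 47.8, 48.8, 51.4 and 50.7 CPM in the WT libraries (0.84 ± 0.05). Adam9, a membrane protease that sheds growth factors, had 155.1, 154.8, 150.6 and 146.6 CPM in the knockout libraries, against 81.9, 90.5, 82.4 and 83.6 CPM in the WT libraries (0.84 ± 0.05). Plat and Adam9 thus had the same fold, 1.79, although they lie far apart in the block. The Wnt antagonist genes Sfrp1 and Dkk4 had 8 counts each over all 8 libraries.

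Kat6a, which acetylates histone H3, had 171.1, 213.9, 154.1 and 163.5 CPM in the knockout libraries, against 127.1, 145.2, 136.2 and 136.0 CPM in the WT libraries. Knockout replicate 2 was the highest, the groups did not overlap, and the log2 fold change was 0.37 ± 0.09. Lipid and phosphate genes followed. Gpat4, an acyltransferase of triglyceride synthesis, was very even, with 200.4, 198.8, 203.0 and 200.1 CPM in the knockout libraries and 126.8, 125.3, 125.3 and 122.8 CPM in the WT libraries (0.68 ± 0.04). Slc20a2, a sodium-phosphate cotransporter, had 142.8, 153.3, 146.0 and 150.2 CPM in the knockout libraries, against 115.4, 108.4, 104.9 and 112.7 CPM in the WT libraries (0.42 ± 0.05). Plekha2, an adaptor that binds phosphoinositides, had 135.7, 131.0, 139.2 and 136.5 CPM in the knockout libraries, against 86.0, 90.5, 89.7 and 92.2 CPM in the WT libraries (0.60 ± 0.04). Each of these genes was free of overlap.

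Golga7, a partner of the enzyme that palmitoylates Ras, had 111.7, 103.1, 111.6 and 111.1 CPM in the knockout libraries, against 71.9, 79.2, 81.1 and 77.8 CPM in the WT libraries (log2 fold change 0.50 ± 0.05). Tm2d2, a small membrane protein gene, had 31.8, 28.1, 33.9 and 30.9 CPM in the knockout libraries, against 18.6, 21.7, 21.4 and 18.7 CPM in the WT libraries (0.63 ± 0.08). Gm17491, a noncoding RNA within an intron of Slc20a2, had 12.7, 14.2, 15.2 and 13 CPM in the knockout libraries, against 10.1, 10.6, 11.7 and 10.7 CPM in the WT libraries (0.35 ± 0.09). The groups were separate in all 3, and the value of Gm17491 was close to the 0.42 of its host Slc20a2.

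The largest shift among genes with at least 1 CPM was that of Ank1, the ankyrin that ties the red cell membrane to its skeleton. It had 12.1, 14.4, 13.4 and 13 CPM in the knockout libraries, against 2.99, 3.01, 3.17 and 3.59 CPM in the WT libraries, a 4.15-fold difference (log2 fold change 2.05 ± 0.10). Smim19, a small membrane protein gene, was next, with 5.75, 4.58, 6.04 and 5.05 CPM in the knockout libraries and 2.02, 1.98, 1.33 and 1.54 CPM in the WT libraries (1.64 ± 0.17). Its exons overlap those of Slc20a2, which runs the other way from a start 94 bases inside the gene, so their reads may be shared. Ap3m2, a subunit of the AP-3 vesicle adaptor, was at 6.00 ± 0.922 CPM in the knockout and 2.84 ± 0.248 CPM in the wild type (1.08 ± 0.14). Exons of Ank1, Smim19, Slc20a2, Polb, Golga7, Tcim, Plekha2, Tacc1, Fgfr1 and Letm2 overlap those of another gene, so their levels are less certain without stated strand use. The 4 largest folds lay in weakly expressed genes. Across the 27 genes, log2 fold change and the log2 wild-type level had a Pearson r of -0.42. By rank they were hardly related (Spearman rho = -0.09). Both values are a description over genes of the same libraries, and the wild-type level also enters the fold change.

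**Figure D2:**
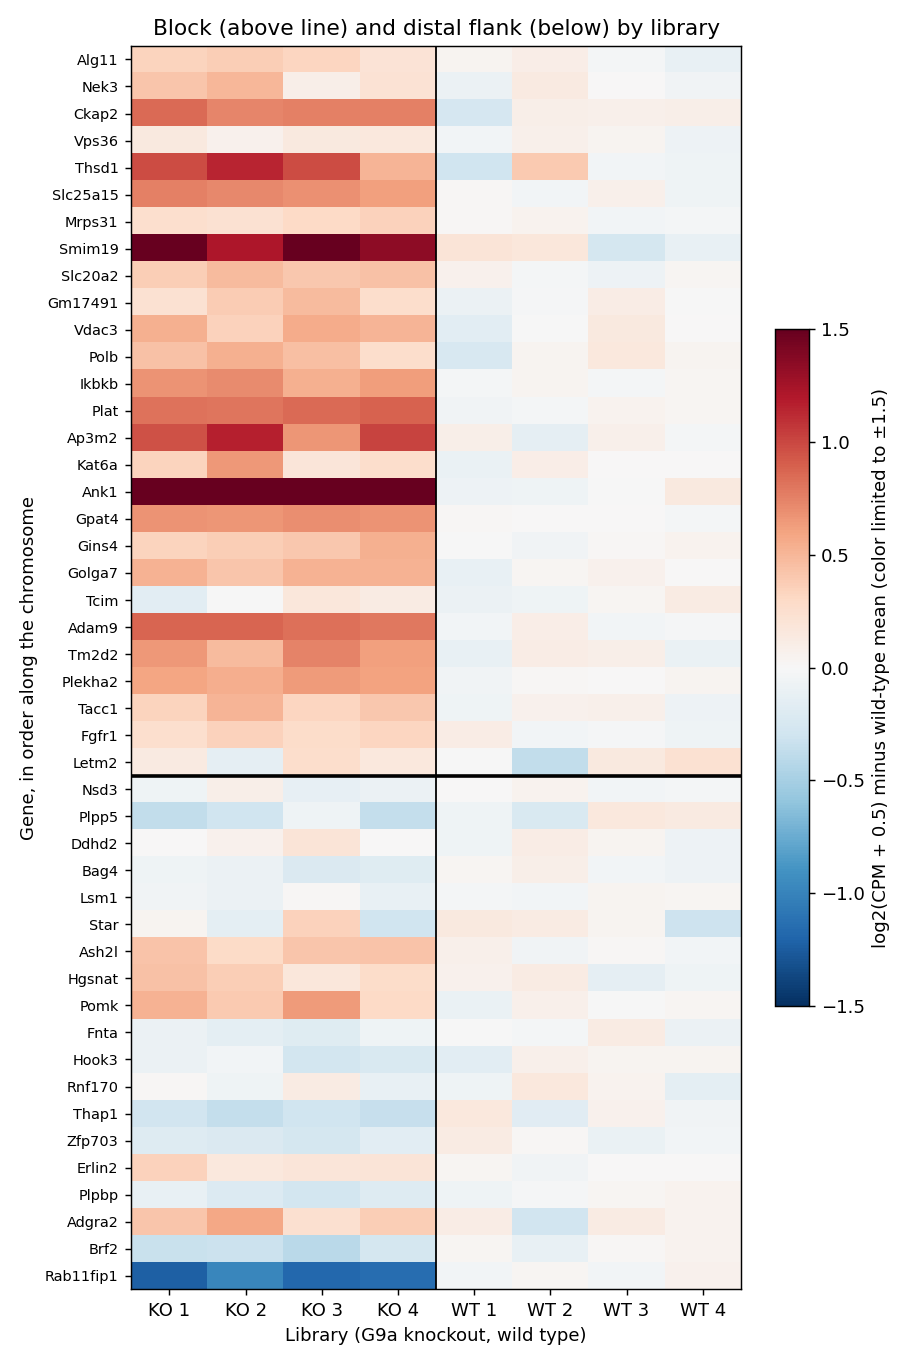
Level in each library of the genes that average 1 CPM or more, as log2(CPM + 0.5) minus the wild-type mean, for the 27 block genes above the line and the 19 genes of the distal flank below it. The knockout columns are red from Alg11 to Fgfr1 with the exception of Tcim, and faint in Vps36, with both colors below the line.

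The middle of the block is poor in expressed genes, with 1.18 Mb between Golga7 and Tcim and 0.511 Mb between Tcim and Adam9. The 20 expressed genes from Alg11 to Golga7 had a median log2 fold change of 0.49, and the 5 from Adam9 to Fgfr1 one of 0.60. Tcim, a short regulator of transcription in the sparse part between them, did not share the shift. It had 21.4, 24.0, 27.1 and 26.1 CPM in the knockout libraries, against 22.6, 23.0, 24.5 and 26.1 CPM in the WT libraries, with full overlap (0.03 ± 0.08). Beside it, the noncoding RNA Gm30692 was at 1.33 ± 0.356 CPM in the knockout and 0.515 ± 0.135 CPM in the wild type. Exons of the antisense RNA Gm26714 overlap Tcim, and without stated strand use their reads cannot be told apart. Gm26714 was at 0.532 ± 0.165 CPM in the knockout and 0.221 ± 0.132 CPM in the wild type.

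The immune genes of this sparse part were silent or nearly so. Ido1 (24584136 to 24597009) had no count in any library, so levels up to a limit of 0.0401 to 0.0516 CPM, depending on the library, cannot be told from 0. Ido2 had 0.260, 0.274, 0.235 and 0.196 CPM in the knockout libraries, against 0.000, 0.212, 0.058 and 0.190 CPM in the WT libraries. Knockout replicate 4 lay below the highest wild-type library, and the knockout values rest on 14 to 20 counts each. Of the ADAM genes of sperm, Adam18 and Adam5 had no count, and Adam3 had 33 counts over all libraries. Adam32, given above, had 23, 36, 15 and 28 counts in the knockout libraries, against 0, 14, 0 and 4 counts in the WT libraries.

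Fgfr1 (25513654 to 25575718, plus strand) is the last clearly shifted gene of the block. It had 88.3, 94.3, 89.5 and 92.4 CPM in the knockout libraries, against 80.0, 72.1, 73.1 and 71.0 CPM in the WT libraries. Each knockout library lay above each wild-type library, and the log2 fold change of 0.30 ± 0.05 was among the smaller ones: of the expressed block genes, Mrps31, Vps36, Letm2 and Tcim were lower still. Most of its counts fell on the transcript Fgfr1-201, with 5037, 5924, 4450 and 4021 counts in the knockout libraries and 4068, 3631, 3377 and 2664 counts in the WT libraries. Unlike the gene, this transcript overlapped between groups in CPM (65.5, 85.6, 74.8 and 56.4 against 66.4, 54.9, 48.9 and 42.3). Its share of the gene's counts varied from 59.5% in wild-type replicate 4 to 90.7% in knockout replicate 2. Letm2, at the inner side of the border, was given above, and the antisense RNA D830025C05Rik, which overlaps it, was at 0.134 ± 0.10 CPM in the knockout and 0.0967 ± 0.103 CPM in the wild type.

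The gene just outside, 25.9 kb past the end of Fgfr1, is Nsd3, a methyltransferase of lysine 36 of histone H3. It had 67.6, 75.4, 64.7 and 66.4 CPM in the knockout libraries, against 71.3, 73.4, 69.0 and 69.5 CPM in the WT libraries (log2 fold change -0.05 ± 0.06). The highest and the lowest values were both from knockout libraries. Plpp5, a phospholipid phosphatase, had 9.63, 10.2, 12.1 and 9.76 CPM in the knockout libraries, against 12.1, 10.7, 14.1 and 13.9 CPM in the WT libraries (-0.29 ± 0.11). Ddhd2, a lipase, had 20.5, 21.4, 23.4 and 20.5 CPM in the knockout libraries, against 19.4, 22, 20.9 and 19.3 CPM in the WT libraries (0.07 ± 0.07). Groups overlapped in all 3. The step at the border was thus from 0.30 at Fgfr1 to -0.05 at Nsd3. The weak Letm2 between them, at 0.13 ± 0.23, cannot be told from either. Further on, Bag4, an inhibitor of death receptor signaling (-0.14), Lsm1, a factor of messenger RNA decay (-0.06), and Star, which carries cholesterol into mitochondria for steroid synthesis (-0.01), also overlapped between groups. The median of the 6 genes from Nsd3 to Star was -0.06.

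**Figure D3:**
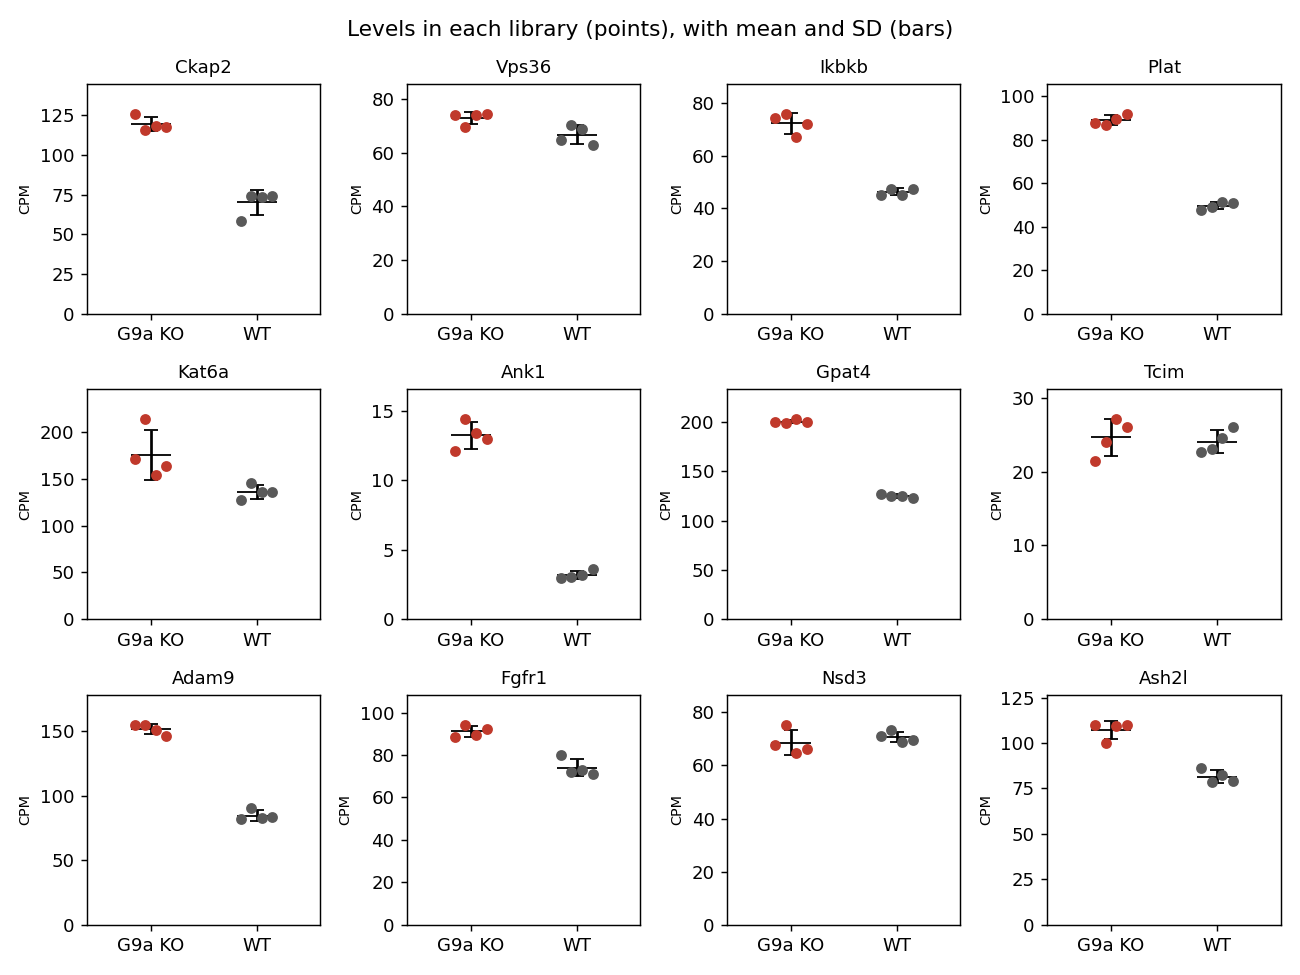
CPM in each library (points; bars show the mean and SD, n = 4) for 10 block genes and, in the last 2 panels, for Nsd3 and Ash2l of the distal flank, each axis starting at 0. Knockout points lie above wild-type points in every panel but those of Vps36, Tcim and Nsd3.

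The distal flank was not uniform. After Star, 3 neighbors were higher in each knockout library. Ash2l, a core subunit of histone H3 lysine 4 methyltransferases, had 110.1, 99.9, 109.1 and 109.9 CPM in the knockout libraries, against 86.1, 78.8, 82.3 and 78.9 CPM in the WT libraries (log2 fold change 0.40 ± 0.05). Hgsnat, a lysosomal enzyme of heparan sulfate breakdown, was at 27.9 ± 2.25 CPM in the knockout and 22.4 ± 1.88 CPM in the wild type (0.32 ± 0.08). Pomk, a kinase of the dystroglycan glycan, had 9.40, 8.55, 10.2 and 7.99 CPM in the knockout libraries, against 5.94, 6.79, 6.38 and 6.52 CPM in the WT libraries (0.49 ± 0.10). Their shifts lay within the range of the block, from which 6 expressed genes with overlapping groups separate them.

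The 10 expressed genes from Fnta to Rab11fip1 had a median log2 fold change of -0.18. Fnta (a farnesyltransferase subunit, -0.12), Hook3 (a microtubule adaptor, -0.16) and Rnf170 (a ubiquitin ligase, -0.01) overlapped between groups. Lower in each knockout library were the transcription factor gene Thap1 (-0.34 ± 0.09), the corepressor gene Zfp703 (-0.21 ± 0.05), Plpbp, a pyridoxal phosphate binding protein (-0.20 ± 0.05), and Brf2, an initiation factor of RNA polymerase III (-0.35 ± 0.08). The largest difference of the flank was that of Rab11fip1, an effector of the recycling GTPase Rab11. It had 12.2, 14.5, 12.6 and 12.9 CPM in the knockout libraries, against 28.2, 29.7, 28.2 and 30.4 CPM in the WT libraries, a fold of 0.448 (-1.16 ± 0.07). Erlin2, a membrane protein of the endoplasmic reticulum, was higher, at 53.1 ± 3.28 CPM in the knockout and 45.5 ± 1.18 CPM in the wild type, as was Adgra2, an adhesion receptor, at 4.59 ± 0.493 and 3.36 ± 0.483 CPM. Of the 20 flank genes that passed the filter, 5 were higher and 5 lower without overlap, against 22.5% and 21.4% of all genes tested.

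The rest of chromosome 8 gave lower medians. Among genes with at least 5 CPM the median log2 fold change was 0.46 over 22 block genes, -0.12 over 17 of the distal flank, -0.30 over 3 of the proximal flank, -0.08 over 506 elsewhere on the chromosome and -0.05 over all 9977. In windows of 10 Mb the median was 0.30 in the window from 20 to 30 Mb (43 genes) and between -0.17 and 0.03 in the other 12. These windows took all genes at this level, without the exclusion of Eif4ebp1. With library sizes alone in place of TMM, the medians of the block and the distal flank were 0.576 and -0.009, and the split of all called genes was 4543 higher and 2742 lower, in place of 3742 and 3734.

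**Figure D4:**
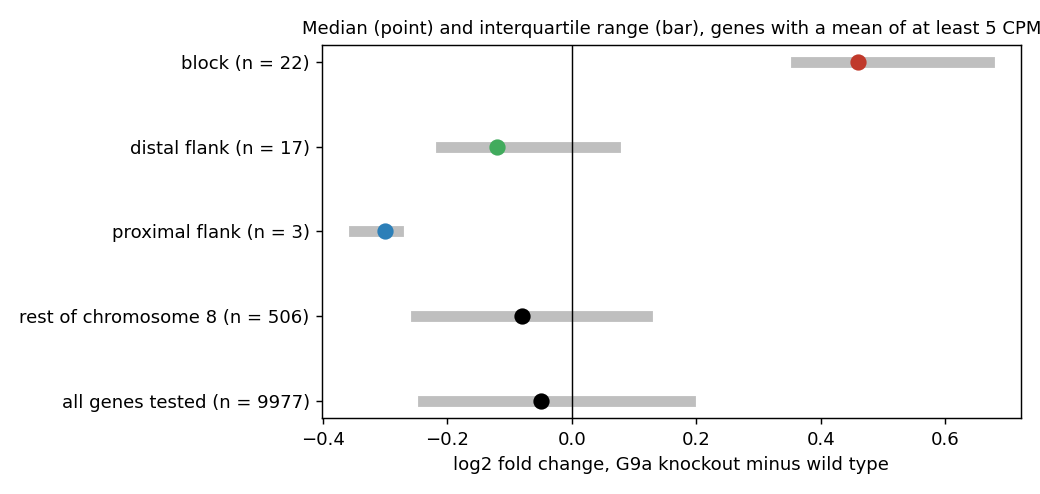
Median (point) and interquartile range (bar) of the log2 fold change, knockout minus wild type, of genes that average 5 CPM or more in the block, its flanks, the rest of chromosome 8 and all genes tested. The bar of the block lies above 0 and above the bars of the other sets.

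For 7 pairs of genes that start head to head within 1000 bases, both log2 fold changes are given, and differences within pairs were not tested. Adam9 and Tm2d2, with starts 284 bases apart, had 0.84 and 0.63, and Smim19 and Slc20a2 had 1.64 and 0.42. The pairs at the borders had 1.83 for the near silent Atp7b and 0.31 for Alg11, and 0.13 ± 0.23 for Letm2 and 0.43 ± 1.01 for the weak D830025C05Rik. In the distal flank, Bag4 and Lsm1 start 1 base apart and had -0.14 ± 0.06 and -0.06 ± 0.05. Hook3 and Rnf170 had -0.16 ± 0.07 and -0.01 ± 0.09, and Ddhd2 and the weak Gm17484 had 0.07 ± 0.07 and -0.46 ± 0.41. Levels per kb were taken over all annotated exons of a gene joined, whichever of its transcripts were expressed. These lengths run from 1349 bases for Gins4 to 19078 for Ikbkb, so the order depends in part on the annotation. By this measure Gins4 was highest among block genes in the wild type (42.6 ± 2.69 CPM per kb in the knockout, 32.0 ± 1.04 in the wild type). Next came Vdac3 (34.0 ± 2.17 and 24.3 ± 2.1), Ckap2 (37.1 ± 1.4 and 21.8 ± 2.39) and Adam9 (36.9 ± 0.983 and 20.6 ± 0.967). In the wild type Gins4 lay above Vdac3 without overlap, while Vdac3 overlapped with Ckap2 and Ckap2 with Adam9. Fgfr1 ranked 14 of 27 by wild-type level (9.23 ± 0.276 and 7.5 ± 0.41) and overlapped with Plat above it. Ank1 (0.979 ± 0.0712 and 0.236 ± 0.0206), Thsd1 and Letm2 ranked last. The coefficient of variation between libraries, as a median over the 22 block genes with at least 5 CPM, was 4.6% in the knockout and 5.27% in the wild type.

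Counts per transcript were less even than their sums and are given for a gene chosen after its values were seen. Ash2l-204 had 916, 752, 1835 and 3697 counts in the knockout libraries, against 0, 9, 0 and 0 counts in the WT libraries. Ash2l-203 went the other way, with 61, 120, 99 and 86 counts in the knockout libraries and 423, 875, 421 and 139 counts in the WT libraries. Ash2l-201, the transcript with the most counts in every library but knockout replicate 4, had 6814, 4837, 3005 and 2184 counts in the knockout libraries, against 2752, 4029, 4420 and 4212 counts in the WT libraries. The share of Ash2l-204 was 10.8%, 10.9%, 28.3% and 47.1% in the knockout libraries and at most 0.173% in a wild-type library. How reads were assigned to transcripts is not given in the sources used here, so these shares are uncertain where the sum is not. In the block, counts of Ank1 fell on different transcripts from library to library. Ank1-213 had 66, 338, 35 and 14 counts in the knockout libraries and none in the wild type. Ank1-210 had 21, 99, 1 and 0 counts in the knockout libraries, against 0, 146, 140 and 52 counts in the WT libraries. Ank1-209 had 0, 0, 63 and 0 counts in the knockout libraries, against 134, 37, 37 and 0 counts in the WT libraries.

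**Figure D5:**
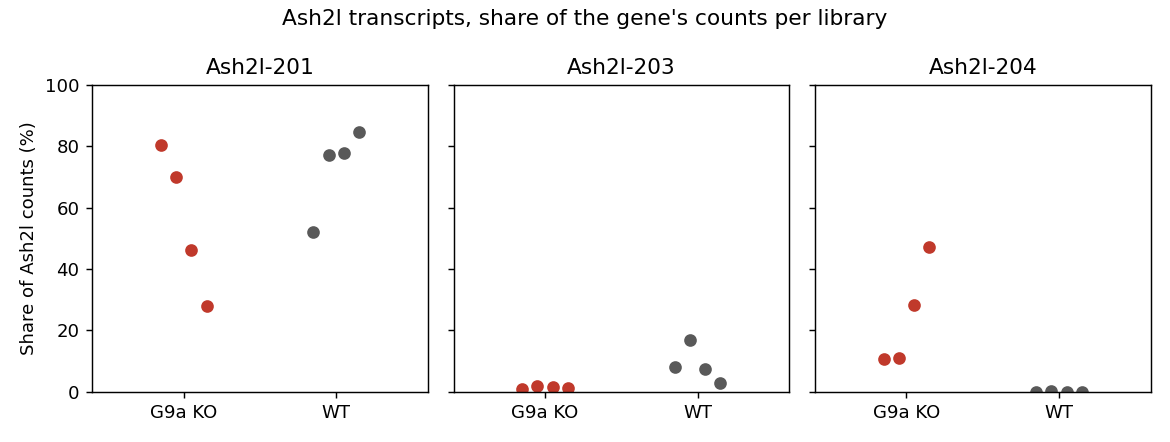
Share of the Ash2l counts (%) taken by 3 of its transcripts in each knockout and wild-type library. The share of Ash2l-204 reaches 47.1% in the knockout and stays at or under 0.173% in the wild type.

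Genes outside the region that act with the block's signaling and chromatin genes were counted from lists, in the test across all genes. Of 30 FGF pathway genes tested, 6 rose and 11 fell, and their median log2 fold change was 0.05, against 0.00 over all genes tested. Plcg1, a phospholipase activated by the receptor, fell to 67.7 ± 3.82 CPM in the knockout, against 122.3 ± 4.77 CPM in the wild type (edgeR, adjusted p = 3.44e-08). Spred1, an inhibitor of the pathway, was also lower (-0.68 ± 0.06), while the co-receptor gene Kl (2.85 ± 0.20, edgeR adjusted p = 1.05e-07) and the ligand gene Fgf1 (1.16 ± 0.09, edgeR adjusted p = 3.51e-07) rose. Of 19 genes of the IKK complex and the NF-kB core, 8 rose and 2 fell, with a median of 0.08. The feedback inhibitor genes Tnfaip3 (5.87 ± 0.228 CPM in the knockout, 2.66 ± 0.239 CPM in the wild type) and Nfkbia (0.28 ± 0.05), the adaptor gene Traf2 (0.33 ± 0.07) and the subunit gene Nfkb1 (0.24 ± 0.05) rose. The 2 that fell, named after their values were seen, code for subunits too: Rel (-0.24 ± 0.08, edgeR adjusted p = 0.0241) and Rela (-0.13 ± 0.04, edgeR adjusted p = 0.0318). Of 8 genes of MYST acetyltransferases and their partners, none rose and 2 fell, Kat7 (-0.36 ± 0.05, edgeR adjusted p = 3.66e-05) and Brpf1 (-0.20 ± 0.06). Their partners Brd1 (-0.13 ± 0.05) and Meaf6 (-0.10 ± 0.06) did not pass. These counts stand beside 23.6% of all genes called in each direction.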

How the data were processed

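Poly-A RNA of 8 libraries was counted by the authors. The deposited table holds whole-number counts per transcript, not normalized, per the file headers and its values. FastQC, Trimmomatic and HISAT2 are named in the submitters' processing notes, with the build GRCm38.p6. Which tool counted reads, whether by strand and on which annotation is not given in the sources used here. Of 115220 transcripts, 888 (between 0.148% and 0.17% of a library's counts) matched no GENCODE release 21 identifier and were left out. The rest were summed to 47434 genes, as the design had foreseen for a table of transcripts. The limit given for a gene at 0 covers counting error only, while each SD and SE holds the spread between libraries.

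Groups were compared with edgeR 4.0.16 (R 4.3.3), by the quasi-likelihood F test, TMM, filterByExpr, genotype as the only term, Benjamini-Hochberg adjustment over 15840 genes, two-sided. Each SE was taken as the size of the log2 value over the root of its F statistic. P-values set the group difference against the spread between libraries, which may be technical. Alternatives used DESeq2 1.42.0 and limma 3.58.1. The test was tested on simulated data. Named genes were all members with a mean of at least 1 CPM. Values per library are given for block genes from 10 CPM on and Ido2, and in the flanks for the 3 genes nearest to each border and the 3 largest shifts. Mrps31 and 6820431F20Rik are exceptions, given as mean and SD. Ank1, Smim19, Atp7b and other values of weaker genes were added after values were seen. Members, borders and lists were chosen with earlier results of these data known. Figures were drawn with matplotlib 3.10.9.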

Additional observations from a re-analysis of the deposited data

Results flagged for a closer look

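In 5 of 100 groups of 4 libraries (the 50 named members in each genotype), 1 library lay far from the other 3 by Dixon's criterion, and chance flags about 1 group in 20. Ckap2 was at 58.5 CPM in wild-type replicate 1, against 73.6 to 74.1 CPM in the other WT libraries. Knockout replicate 2 was the low library for Vps36 (69.5 CPM, others 74.0 to 74.6), Golga7 (103.1 CPM, others 111.1 to 111.7) and Ash2l (99.9 CPM, others 109.1 to 110.1). Erlin2 was at 58.0 CPM in knockout replicate 1, against 50.9 to 51.9 CPM in the other knockout libraries.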

How the results depend on the processing

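Over the alternatives run, the block median lay between 0.431 and 0.648, and exceeded the flank median by 0.589 to 0.799. The alternatives reuse the libraries that set the borders, so they describe the effect of processing and do not test the block. It was 0.576 with library sizes alone, 0.554 with upper quartile scaling, 0.538 with the replicate block, 0.648 with all genes with at least 1 read, 0.547 with protein-coding genes and with gene midpoints, 0.643 with genes free of exon overlap, 0.431 at 10 CPM or more, and 0.458 without its 3 largest members (an alternative chosen after seeing the data). Leaving out a library gave 0.460 to 0.633 for the block, -0.339 to -0.21 and -0.128 to -0.069 for the proximal and distal flanks, and 0.595 to 0.775 for block minus flanks, with 33 or 34 block genes counted. The distal flank was at -0.009 (library sizes), -0.031 (upper quartile), -0.142 (1 read), -0.060 (protein-coding, and 1 CPM), -0.010 (no overlap) and -0.130 (10 CPM). Block minus flanks was 0.799 (1 read), 0.732 (no overlap), 0.589 (10 CPM) and 0.708 (midpoints). The proximal flank was at 1.83 with protein-coding genes, which leaves Atp7b alone there. The cause of the other shifts was not tested. Called genes numbered 5786 to 7775, all within 1.5 times the 7476 reported.

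Of 842 recomputed values of single genes, 30 moved by more than the spread between libraries (21 with library sizes alone, 7 with upper quartile scaling), and 18 changed sign, all in Rnf170, Star, Lsm1, Nsd3, Tcim and Letm2. Between knockout and wild-type libraries of the same replicate number, deviations had correlations of -0.284, 0.078, 0.384 and 0.13. Libraries of unlike number had correlations of -0.352 to 0.306. These ranges overlap, so whether the numbers pair the libraries cannot be told from them. With the replicate number in the fit, 7255 genes were called. Depth limits statements on the 37 genes with reads that did not pass the filter.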
